A study of Mus musculus with 24 samples.

Results

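Nuclear genes for the subunits of the respiratory chain and the ATP synthase are described here, ordered by complex, in mouse fibroblasts cultured under iron, manganese or an iron-manganese alloy. Members were the rows whose array symbol began with Ndufa, Ndufb, Ndufc, Ndufs, Ndufv, Uqcr, Atp5 or Cox4 to Cox8, or was Sdha to Sdhd, Cycs or Cyc1. The name rule found 83 gene symbols, and 75 of them lay above background on at least 6 of the 24 arrays, out of 14308 genes tested. Of the 75, 70 encode subunits or cytochrome c, namely 33 of complex I, 3 of complex II, 7 of complex III, 1 cytochrome c, 12 of complex IV and 14 of complex V. The 12 of complex IV include Ndufa4, despite its name, and the supercomplex factor Cox7a2l. The other 5 of the 75 only share the name pattern. Dmac2 (array symbol ATP5SL), Ndufaf2 (NDUFA12L) and Ndufaf1 are assembly factors, Dmac2l (ATP5S) was counted apart, and Emc8 (COX4NB) belongs to a membrane protein insertion complex and not to the chain.

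The respiratory chain sits in the inner mitochondrial membrane. Complex I takes electrons from NADH and complex II takes them from succinate, both pass them to coenzyme Q, and complex III hands them through the soluble carrier cytochrome c to complex IV, which reduces oxygen. The proton gradient built on the way drives complex V, the ATP synthase. Core subunits carry the catalysis, while accessory subunits serve assembly and stability, and some subunits of complex IV exist as isoforms that differ between tissues.

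The cells were BALB/3T3 clone A31, a fibroblast line from mouse embryo of BALB/c origin and so 1 clone, and every group came from it. Control cells had no metal, and the metal groups had a powder held in a culture insert above the cell layer for 24 h, at 0.5 mg/ml for pure manganese, 5 mg/ml for the Fe-35Mn alloy and a dose between these for pure iron. The doses differ, so differences between metals are not differences at a matched dose. There were 6 arrays per group, and the titles call the replicates technical, so p-values measure only the spread between these arrays. Fewer cells of a kind and less RNA per cell cannot be told apart in such bulk samples.

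Median intensities ran from 61.6 to 75.3 over the arrays, with between 36.9% and 43.4% of the probes above background. All 10 fibroblast markers were above background on all 24 arrays, and the mean of all 10 was lower with manganese than in control, and of 9 with the alloy (Col1a1 12.21 in control, 11.36 with manganese and 11.41 with the alloy). Of the markers of other cell types, Pecam1, Ptprc and Myod1 were above background on 0 arrays, the epithelial Cdh1 on 21, the muscle gene Des on 24, and the endothelial Cdh5 and the leukocyte gene Cd68 on 7 each, none of them control arrays. The part of these markers in the results was not tested. The alloy arrays varied more among themselves than the others, with a median SD of a member of 0.137 log2 units against 0.0714 in control, 0.081 with iron and 0.0878 with manganese. The number of arrays limits the precision. Levels below are log2 normalized intensities of the brightest probe of a gene, and changes are log2 differences between group means, tested with limma on the 12 arrays of the groups compared, with Benjamini-Hochberg adjustment over all 14308 genes and a threshold of 0.05. Levels of different probes were not compared with each other.

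The promoter windows of 3 members are shown because these genes gave some of the largest changes of their complexes in opposite directions. The windows run from 250 bases before to 50 after the annotated start (RefSeq, GRCm38.p6, minus strand in each case), 5′ to 3′. Capitals mark matches to any of 4 motifs searched on both strands: the NRF-1 core GCATGCGC, the ETS motif CCGGAAG, the cAMP response element TGACGTCA and the E-box CACGTG.
Uqcrh, chr4:116075021-116075320: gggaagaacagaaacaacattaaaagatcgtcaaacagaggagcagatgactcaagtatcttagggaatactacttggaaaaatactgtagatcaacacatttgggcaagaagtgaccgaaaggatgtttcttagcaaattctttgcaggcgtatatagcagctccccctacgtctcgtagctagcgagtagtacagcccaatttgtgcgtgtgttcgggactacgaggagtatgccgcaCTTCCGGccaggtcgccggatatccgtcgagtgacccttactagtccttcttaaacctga
Cycs, chr6:50566520-50566819: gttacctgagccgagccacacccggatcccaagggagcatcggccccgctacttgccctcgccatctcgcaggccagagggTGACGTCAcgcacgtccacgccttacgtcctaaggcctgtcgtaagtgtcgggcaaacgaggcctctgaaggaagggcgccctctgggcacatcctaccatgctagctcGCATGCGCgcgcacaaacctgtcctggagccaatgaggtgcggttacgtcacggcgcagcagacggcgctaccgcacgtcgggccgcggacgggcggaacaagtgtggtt
Cox7a2l, chr17:83514284-83514583: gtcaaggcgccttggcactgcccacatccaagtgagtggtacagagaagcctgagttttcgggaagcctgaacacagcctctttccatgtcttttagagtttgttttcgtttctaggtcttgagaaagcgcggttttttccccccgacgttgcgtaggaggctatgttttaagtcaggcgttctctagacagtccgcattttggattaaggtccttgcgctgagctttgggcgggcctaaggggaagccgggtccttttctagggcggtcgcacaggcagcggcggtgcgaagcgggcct
The Uqcrh window held 1 match, to the ETS motif, the Cycs window held 2, to the NRF-1 core and the cAMP response element, and the Cox7a2l window held 0. The window of Ndufb10, also read but not shown, held 0. A window was found for 63 of the 75 members. The NRF-1 core occurred in 11 of these 63 (17.5%), against 3.05% of all 27025 genes with a window. The ETS motif occurred in 16 members (25.4%) against 9.93% of all genes, the cAMP response element in 5 (7.94%) against 2.03%, and the E-box in 6 (9.52%) against 8.09%. All genes with a window were counted whether or not they were above background here, so the shares are not matched for expression. A match is a description of the letters and shows no binding.

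Not every subunit was measurable. The 8 symbols that missed the filter were Cox4i2, Cox6b2, Cox7b2, Cox8b, Cox8c, Ndufs1, Sdha and Uqcrq. Cox6b2, on 3 arrays, came closest, and the other 7 were above background on 0 arrays. These include Ndufs1, the largest core subunit of complex I, and Sdha, the flavin subunit of complex II, whose probes were not well above background. Just inside the rule were Uqcrfs1, the Rieske iron-sulphur protein of complex III, on 8 arrays, and Atp5k on 16. The other 73 members were above background on all 24 arrays.

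With iron, the members hardly moved on the brightest probe of each gene. Dimmer kept probes could differ, and a dimmer probe of Cycs lay 0.31 higher. Cox7a2l, which joins complexes III and IV into supercomplexes, was 10.79, 10.86 and 10.98 (lowest, median, highest array) in control and 10.95, 11.06 and 11.09 with iron. The iron arrays lay higher but overlapped the controls, and the change was 0.18 (SE 0.0411, adjusted p = 0.0261). Atp5g2, a gene for the c ring of the ATP synthase, was 10.11, 10.18 and 10.26 in control and 10.23, 10.45 and 10.49 with iron, and rose by 0.22 (adjusted p = 0.0172). These 2 of 75 members were called higher and 0 lower, while 2.57% of all genes were called (0.769% higher, 1.8% lower), so the members' share was near the background. The arrays of the groups did not overlap for 1 member, Emc8 (0.14 higher, adjusted p = 0.0524), and for 0 in the lower direction, while all genes gave 0.797% higher and 1.42% lower. The dimmer kept probe of Emc8 changed by -0.09. At an unadjusted p under 0.05 there were 8 members (10.7%) against 18.3% of all genes, and the median change of all members was 0.02 against 0.003 for all genes. Both calls were lost in 1 model of all 24 arrays, where the adjusted p was 0.304 for Cox7a2l and 0.162 for Atp5g2. Cox7a2l also missed the threshold without any 1 of control replicates 4, 5 and 6 or iron replicates 2 and 6 (adjusted p 0.0501 to 0.0609). The same held with median scaling (0.137), without normalization between arrays (0.268) and with the mean of its probes (0.104). The dimmer kept probe of Cox7a2l changed by 0.03 with iron.

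With manganese the chain moved mostly downward, with a small set of members moving strongly the other way. Of the 75 members 45 fell and 6 rose, while 60.5% of all genes were called, 31.2% lower and 29.3% higher. The share of members called at all, 68%, was near that background, and the direction differed from it: 60% of members were lower and 8% higher. The median change of the members was -0.16 against -0.001 over all genes. The arrays of the groups did not overlap for 27 lower and 5 higher members, while all genes gave 21.2% and 20.2%.

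**Figure D1:**
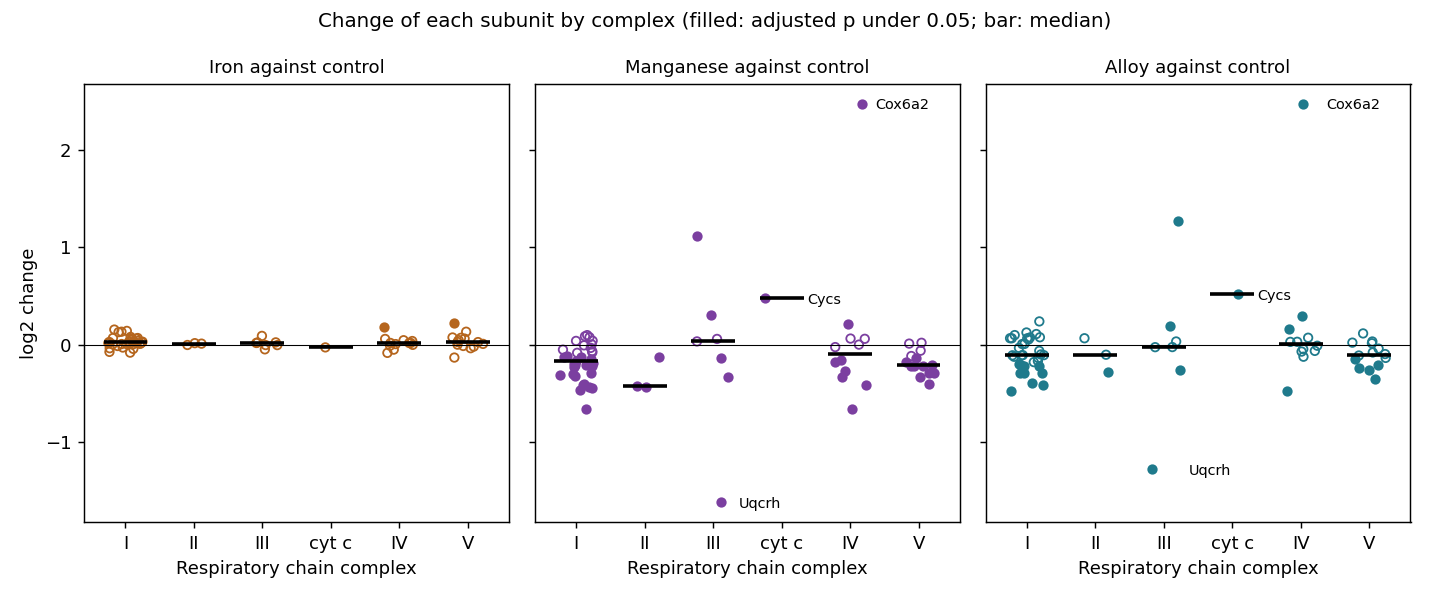
The log2 change of each of 70 subunits and cytochrome c is plotted by complex for iron, manganese and the alloy against control; filled points passed the adjusted p of 0.05, open points did not, and bars are medians. Iron changes stay close to 0, most manganese changes in complexes I, II and V lie below 0, and Cox6a2 at 2.48 and Uqcrh at -1.62 with manganese lie far from the rest.

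In complex I, 21 of 33 subunits fell with manganese (63.6%, against 31.2% of all genes) and 0 rose (against 29.3%), with a median change of -0.17. The share called in either direction was near the 60.5% of all genes. The fall took in both kinds of subunit, 5 of 6 core and 16 of 27 accessory ones. Ndufb10, an accessory subunit of the membrane arm, was 9.963, 10.14 and 10.33 in control, 9.724, 10.07 and 10.4 with iron, 9.368, 9.481 and 9.569 with manganese and 9.506, 9.782 and 9.942 with the alloy. Every manganese and alloy array lay below every control array. The change with manganese was -0.67 (SE 0.0543, adjusted p = 1.38e-09), a 1.59-fold fall. A dimmer kept probe of Ndufb10 moved less, by -0.13 with manganese and -0.04 with the alloy. Ndufa3, another accessory subunit, fell by 0.46 (adjusted p = 3.45e-08), and Ndufc1 fell by 0.43. The core subunit Ndufs7 differed by 0.10 and did not pass (adjusted p = 0.105). Ndufs6, at 0.08 (adjusted p = 0.111), was the 1 member whose kept probes disagreed in sign with manganese. Ndufv1, the NADH-binding core subunit, passed narrowly at -0.12 (adjusted p = 0.0205) and missed the threshold without control replicate 2 (adjusted p = 0.0559), in the model of all 24 arrays (0.117), with median scaling (0.0945) and without normalization (0.0711).

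In complex II, all 3 measured subunits fell with manganese, against 31.2% of all genes, with a median change of -0.43. Sdhc, a membrane anchor subunit, was 11.64, 11.72 and 11.82 in control, 11.56, 11.75 and 11.9 with iron, 11.14, 11.33 and 11.41 with manganese and 11.3, 11.41 and 11.67 with the alloy. Only the manganese arrays lay wholly below the controls, and the change was -0.43 (SE 0.0484, adjusted p = 1.66e-07). Sdhd, the other anchor, was 8.102, 8.232 and 8.613 in control and had a median of 7.864 with manganese, where every array lay below every control, and fell by 0.44 (adjusted p = 7.76e-05). Sdhb, the iron-sulphur subunit, changed by -0.13 (adjusted p = 0.0397), and lost the call without any 1 of 9 arrays (adjusted p up to 0.0903) and in 7 of the other settings tried. In the authors' normalized probe table the median of the complex was -0.14.

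Complex III held both the largest fall and one of the largest rises. Uqcrh, the hinge protein that binds cytochrome c1, was 12.96, 13.19 and 13.26 in control, 13.11, 13.15 and 13.2 with iron, 11.44, 11.55 and 11.63 with manganese and 11.15, 11.96 and 12.51 with the alloy. The control and iron arrays lay in a narrow band, and every manganese and alloy array lay below it. With manganese its log2 change was -1.62 (SE 0.0527, adjusted p = 5.98e-16), a 3.08-fold fall. A probe with the array symbol UQCRB, which the platform annotation assigns to Uqcrq, was 7.67, 7.729 and 7.763 in control, 7.643, 7.72 and 7.796 with iron, 8.674, 8.875 and 8.946 with manganese and 8.713, 8.805 and 9.473 with the alloy. It rose 2.17-fold with manganese (1.12, SE 0.0469, adjusted p = 3.65e-14). The probe with the array symbol UQCRQ was above background on 0 arrays, so the 2 names could not be set against each other. Cyc1, which encodes cytochrome c1, rose by 0.30 (adjusted p = 0.000123), from 11.62, 11.66 and 11.78 in control to 11.78, 11.99 and 12.17. Uqcr11 fell by 0.33 and Uqcrc1 by 0.14, while Uqcrc2 at 0.06 and Uqcrfs1 at 0.03 did not pass.

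**Figure D2:**
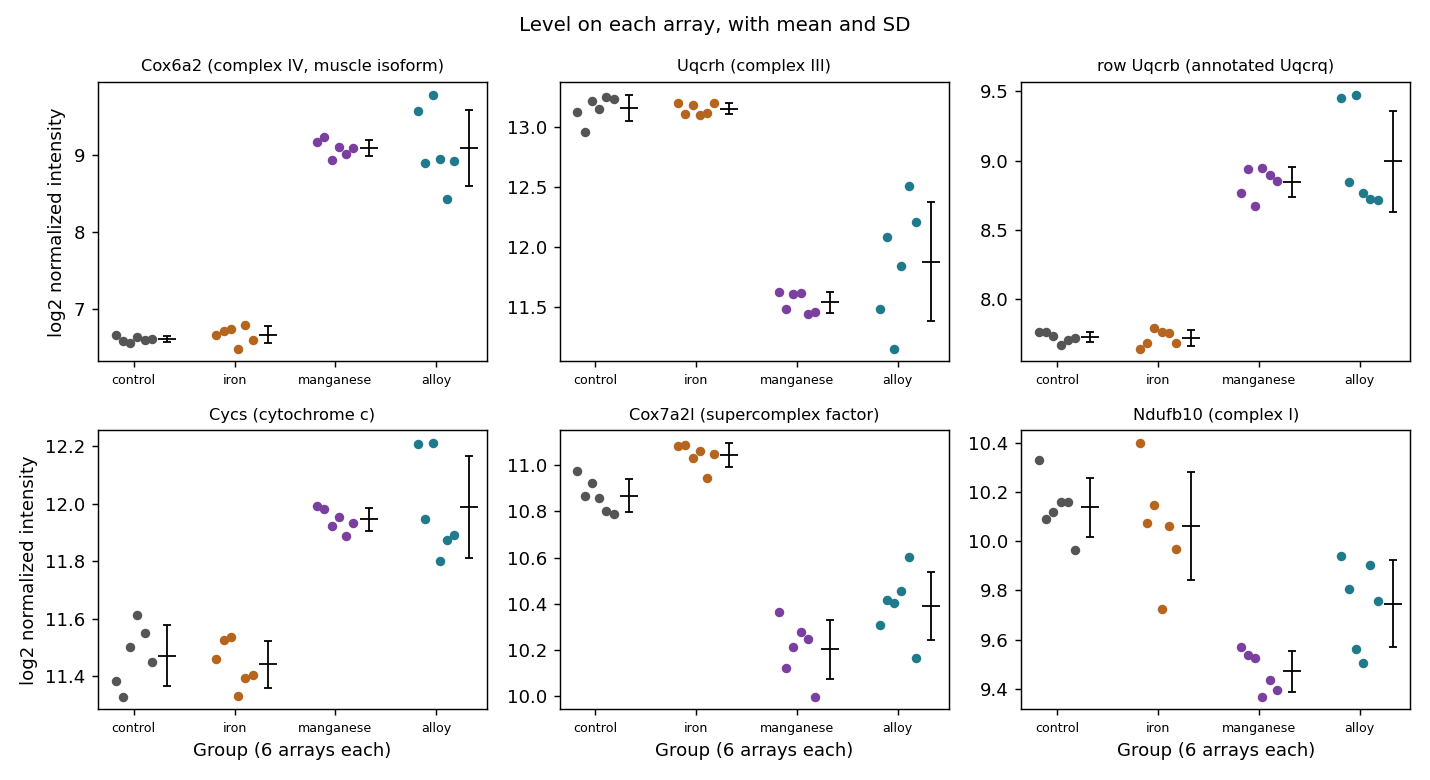
Log2 normalized intensity on each array is plotted for 6 genes in control, iron, manganese and alloy cells (6 arrays each, y axes differ), with the mean and SD beside the points. Control and iron arrays overlap in all 6 panels, manganese arrays lie apart from control in all 6 panels, and the alloy points spread widest for Cox6a2 and Uqcrh.

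Cycs, the soluble carrier cytochrome c, rose with manganese. Its levels were 11.33, 11.48 and 11.61 in control, 11.33, 11.43 and 11.54 with iron, 11.89, 11.94 and 11.99 with manganese and 11.8, 11.92 and 12.21 with the alloy. Neither the manganese nor the alloy arrays overlapped the controls. The change with manganese was 0.47 (SE 0.0469, adjusted p = 2.61e-08), or 1.39-fold, and the other 2 kept probes of the gene also lay higher, by 0.16 and 0.39. With iron these 2 dimmer probes lay 0.31 and 0.10 above control, in the same order, against -0.03 for the probe used. The dimmer probe at 0.16 was therefore higher with iron than with manganese.

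In complex IV the common subunits fell or did not pass, and the tissue isoforms rose. Cox6a2, the heart and skeletal muscle isoform of subunit 6a, was 6.559, 6.606 and 6.664 in control, 6.488, 6.694 and 6.8 with iron, 8.936, 9.097 and 9.233 with manganese and 8.422, 8.933 and 9.775 with the alloy. It was 5.58-fold higher with manganese (2.48, SE 0.0468, adjusted p = 2.22e-19), the largest rise among the 75 members. Its 1 probe averaged 6.61 in control, close to the background limit, which Uqcrfs1 at 6.4 passed on 2 of 6 control arrays. The size of this fold, and of those with the alloy and against iron, is therefore uncertain. The widely expressed counterpart of Cox6a2, Cox6a1, differed by -0.03 (adjusted p = 0.596). Among muscle markers, Myod1 was above background on 0 arrays, and Des averaged 6.93 in control, 7.19 with manganese and 7.16 with the alloy; their part in the result was not tested. Cox7a1, the other muscle isoform, rose by 0.21 (adjusted p = 0.000961), with overlapping arrays, while its counterpart Cox7a2 fell by 0.42 (adjusted p = 4.45e-07). Cox7a2l fell 1.59-fold (-0.67, SE 0.0546, adjusted p = 1.45e-09), from 10.79, 10.86 and 10.98 in control to 9.995, 10.23 and 10.36, and its dimmer probe fell by 0.30. In all, 6 of the 12 members fell (50%, against 31.2% of all genes) and 2 rose (16.7%, against 29.3%), with a median change of -0.09. The other 4 did not pass, among them Cox4i1, the largest nuclear subunit, at -0.001 (95% interval -0.08 to 0.08).

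In complex V, 10 of 14 subunits fell with manganese (71.4%, against 31.2% of all genes) and 0 rose (against 29.3%), with a median change of -0.21. Atp5g2 was 9.624, 9.787 and 9.928, below the controls on every array, a fall of 0.41 (SE 0.0499, adjusted p = 5.05e-07). Atp5pb (array symbol ATP5F1), of the peripheral stalk, fell by 0.33 (adjusted p = 2.57e-05), and the membrane subunits Atp5l and Atp5j2 fell by 0.29 and 0.30. In the catalytic head 3 of 5 subunits fell, Atp5a1 by 0.21, Atp5c1 by 0.18 and Atp5d by 0.22. The catalytic beta subunit Atp5b did not pass, at 0.01 (95% interval -0.07 to 0.09). Atp5g3, another c ring gene, differed by -0.06 and did not pass.

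**Figure D3:**
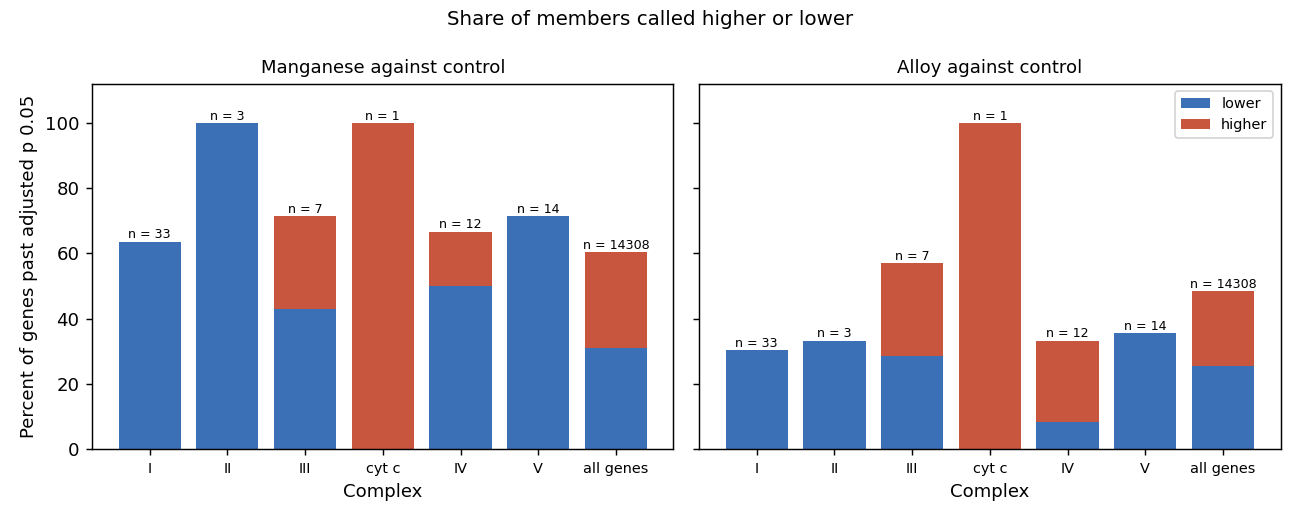
Bars give the percent of measured members of each complex, and of all genes tested, called lower or higher at an adjusted p under 0.05 with manganese and with the alloy, with the number of genes above each bar. Complexes I, II and V hold no higher member in either comparison, and all genes split nearly evenly between the directions.

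Of the members that are not subunits, Ndufaf1, a complex I assembly factor, rose by 0.17 with manganese (adjusted p = 0.000975). Dmac2l fell by 0.52 with manganese and by 0.71 with the alloy, and Emc8 by 0.19 and 0.24.

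With the alloy, fewer members passed the test than with manganese. Of 75 members 21 fell and 6 rose, or 28% and 8%, while 48.5% of all genes were called, 25.5% lower and 23.1% higher. The share of lower members was near the background, and the share of higher members lay below it. The median change of the members was -0.07 against -0.007 for all genes. Groups did not overlap for 13 lower and 4 higher members, while all genes gave 17.2% and 15%. The alloy and manganese comparisons share the 6 control arrays. Without normalization between arrays, 18 members fell and 2 rose, and the median change was -0.12 over all genes and -0.18 over the members.

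The members described above are given here with the alloy, beside their manganese values. Uqcrh was 2.43-fold lower (-1.28, SE 0.18, adjusted p = 4.36e-05) against 3.08-fold with manganese. Cox6a2 was 5.56-fold higher (2.48, SE 0.176, adjusted p = 8.62e-08) against 5.58-fold. The Uqcrq probe (array symbol UQCRB) rose by 1.27 and Cycs by 0.52 (adjusted p = 9.87e-05). Alloy replicates 1 and 3 had the highest levels of Cox6a2, of the Uqcrq probe and of Cycs, and the lowest of Uqcrh. Alloy replicates 1, 3 and 4 had the highest scores of the alloy arrays on the first principal component of all genes (40.1, 49.5 and 27.9, against 9.69 to 19.4), with replicate 4 the nearest to the rest. Without these 3 the changes were 2.13 for Cox6a2, -0.89 for Uqcrh, 1.04 for the Uqcrq probe and 0.43 for Cycs.

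By complex, the alloy left 10 of 33 complex I subunits lower and 0 higher (median -0.11). The lower share of 30.3% was near the 25.5% of all genes, of which 23.1% were higher. Among those that fell were Ndufa3 at -0.48, Ndufc1 at -0.42 and Ndufb10 at -0.39. In complex II only Sdhc passed, at -0.29 (adjusted p = 0.00127), while Sdhd was -0.10 (adjusted p = 0.449) and Sdhb 0.06 (adjusted p = 0.36). In complex III, Uqcrh and Uqcr11 fell and the Uqcrq probe and Cyc1 rose (Cyc1 by 0.19, adjusted p = 0.0209). Cyc1 lost this call with median scaling, at 0.09 (adjusted p = 0.472), and without normalization, at 0.04 (adjusted p = 0.793). Without normalization the alloy calls of Cycs (0.37, adjusted p = 0.101), Cox7a1 (0.12, adjusted p = 0.187), Uqcr11 (-0.36, adjusted p = 0.0531) and Atp5l (-0.36, adjusted p = 0.0696) were lost too, and that of Atp5l also with median scaling (adjusted p = 0.0649). In complex IV, Cox7a2l fell by 0.48 (adjusted p = 4.35e-05), and Cox6a2, Cox7a1 at 0.30 and Cox5a at 0.16 rose. In complex V, 5 of 14 fell (35.7%, against 25.5% of all genes), none of them in the catalytic head. They were Atp5g2 at -0.35, Atp5l at -0.26, Atp5pb at -0.24, Atp5o at -0.21 and Atp5k at -0.15. A dimmer kept probe each of Atp5pb and Atp5o lay higher with the alloy, by 0.06 and 0.16. Of 23 members with 2 or more kept probes, all probes shared a sign with the alloy in 19. Atp5k was above background on 6 control and 6 iron arrays but on 2 of 6 arrays each with manganese and the alloy, so its size of change is uncertain in both comparisons. The calls of Atp5l and Atp5pb were lost without alloy replicates 1, 3 and 4, at -0.12 each.

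**Figure D4:**
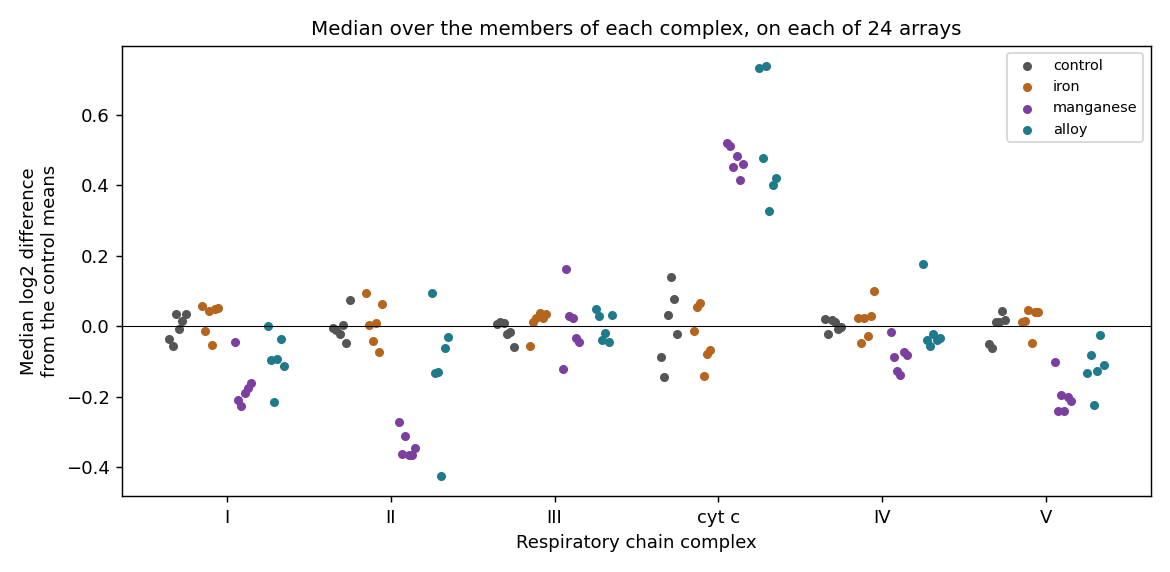
Each point is 1 array: the median, over the members of a complex, of the log2 difference from the control mean, for 6 arrays each of control, iron, manganese and alloy. Manganese arrays lie below all control arrays in complexes II and V, and cytochrome c lies above control on all manganese and alloy arrays.

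The array medians show how even these shifts were. Over all members, the control arrays ran from -0.05 to 0.02 and the manganese arrays from -0.21 to -0.06, all below the controls. Manganese replicate 1 was the highest, and the other 5 ran from -0.21 to -0.16. The alloy arrays ran from -0.18 to 0.01 and overlapped the controls. In complex II the manganese arrays ran from -0.37 to -0.27, and the alloy arrays spread from -0.42 to 0.10. In complex V the manganese arrays ran from -0.24 to -0.10 and the controls from -0.06 to 0.04.

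Set directly against manganese, the alloy differed in 3 of 75 members, all higher, while 3.98% of all genes were called (1.85% higher, 2.13% lower). They were Ndufb9 by 0.43 (SE 0.0856, adjusted p = 0.0157), Cox7a2 by 0.35 (adjusted p = 0.0475) and Atp5d by 0.25 (adjusted p = 0.0418), each lower with manganese than in control. The Cox7a2 call was lost without any 1 of 10 of the 12 arrays (adjusted p 0.0576 to 0.114), in the authors' normalized probe table (0.0727) and with no filter on dim probes (0.0614). The arrays did not overlap for 2 members, Atp5d and Ndufa4, both higher, against 1.42% higher and 2.03% lower over all genes. At an unadjusted p under 0.05 there were 18 members (24%), near the 20.1% of all genes. Cox6a2 differed by -0.003, with a 95% interval from -0.39 to 0.38. Uqcrh was 0.34 higher with the alloy, with an interval from -0.04 to 0.72 (adjusted p = 0.305). Without alloy replicates 1, 3 and 4 Uqcrh was 0.73 higher, and Cox6a2 was 0.35 lower (log2 change -0.35). Those replicates held the highest Cox6a2 and the lowest Uqcrh levels of the alloy arrays. Leaving them out therefore moves both genes toward control by construction, and the directions are no separate result. Alloy replicate 3 had the lowest Uqcrh level, and without it alone the Uqcrh difference was 0.49 (adjusted p = 0.0483). With any 1 array left out, the members' calls ranged from 1 higher, as without alloy replicate 1, to 8 higher without alloy replicate 3. With median scaling or without normalization 0 were called.

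Manganese against iron is a comparison that leaves out the control arrays but shares the manganese arrays with those above. In it 45 members fell and 7 rose, while 59.9% of all genes were called (30.6% lower, 29.2% higher). Groups did not overlap for 24 lower and 3 higher members, against 20.4% and 20.6% of all genes. Uqcrh was 3.07-fold lower (-1.62, adjusted p = 5.82e-17) and Cox6a2 5.36-fold higher (2.42, adjusted p = 5.51e-18). Cox7a2l was -0.84 and Atp5g2 -0.63, and both lay higher with iron than in control. Uqcrc2, of complex III, was 0.11 higher (adjusted p = 0.0433).

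Genes that build or feed the chain, listed apart from the members, moved in both directions. Of 41 measured assembly factors, 17 fell (41.5%) and 11 rose (26.8%) with manganese, against 31.2% and 29.3% of all genes. With the alloy 15 fell (36.6%) and 11 rose (26.8%), against 25.5% and 23.1%, so the rises were near the background in both. In complex II assembly 3 of 4 fell with manganese, among them Sdhaf4 at -0.73 and Sdhaf1 at -0.55, and 3 of 4 fell with the alloy. In complex IV assembly 8 of 19 fell and 6 rose with manganese, with Coa3 at -0.77 and Cox20 at -0.87. Of 12 coenzyme Q synthesis genes 7 rose and 2 fell with manganese (58.3% higher against 29.3% of all genes), and 8 rose and 2 fell with the alloy (66.7% against 23.1%). Coq10b rose by 0.38 with manganese while Coq9 fell by 0.55. Of 12 citrate cycle enzymes 3 rose and 3 fell with manganese, and Ogdh, a subunit of the 2-oxoglutarate dehydrogenase, fell by 0.59. Of 6 mitochondrial carriers and porins 1 rose and 3 fell with manganese. With iron, 0 of the assembly factors, coenzyme Q genes and citrate cycle enzymes passed, and 1 of the 6 carriers and porins did, Slc25a4, an ADP/ATP carrier, which fell by 0.22 (adjusted p = 0.0143).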

How the data were processed

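Total RNA of 24 samples, which the titles call technical replicates, was labelled as biotin cRNA and measured on Illumina mouse bead arrays, per the labels' protocols. Per the file headers, the authors' deposited non-normalized tables hold linear intensity per probe and per gene symbol, and a check found each gene value equal to the average of its probes. The authors' deposited normalized tables hold log2 values and served as alternatives. Per the submitters' processing notes, lumi and RMA were used, in roles and versions not given. No genome build is given in the sources used here. The files hold no detection p-values.

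Intensities of 45281 probes were background-corrected with limma 3.58.1 in R 4.3.3 (normexp, offset 50), put on a log2 scale and quantile-normalized over the 24 arrays. The background limit of an array was set from its mode and the spread of values under the mode, so that 1% of a normal background would exceed it. Probes past it on at least 6 arrays were kept (20205), and the brightest probe stood for each of 14308 array symbols. Symbols were updated through the platform annotation and RefSeq. The used probes of Ndufa6 and Ndufb4, among others, are not listed in that annotation and keep the array's symbol. Each comparison was a two-sided limma fit of its own 12 arrays. The members, lists and this design were chosen with earlier results of these data known. The genes with full values are, in each complex, the largest called rises and falls and a fixed set, of which Ndufa4l2, Atp5g1 and Atpif1 had no row. Values beyond that rule, such as those of Ndufb9, were chosen after they were seen. The steps were tested on simulated data. Python 3.11.15, pandas 2.3.3, NumPy 2.4.6 and Matplotlib 3.10.9 read the promoter windows and drew the figures. The alternatives are named in the closing section. A result of 1 member with full values is not reported here, and members without a value in the text enter only the counts, medians and figures.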

Additional observations from a re-analysis of the deposited data

Results flagged for a closer look

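In 8 of 104 groups of 6 arrays, over 26 genes, 1 array lay far from the other 5 by Dixon's test at its 95% critical value, while chance flags about 1 group in 20. Alloy replicate 4 had the highest Ndufa4 level, 14.13 against 13.88 to 13.97 on the other alloy arrays. The same array had the lowest Ndufv1 level, 13 against 13.35 to 13.49, and the lowest Atp5b level, 15.03 against 15.13 to 15.18. Control replicate 1 had the lowest Atp5b level of the controls, 15.09 against 15.17 to 15.21. Alloy replicate 3 had the lowest Uqcr11 level, 12.64 against 12.99 to 13.17. Manganese replicate 1 had the highest Sdhb level, 11.58 against 11.22 to 11.35. Iron replicate 4 had the lowest Ndufa3 level, 11.73 against 12.09 to 12.23, and iron replicate 1 the lowest Uqcrfs1 level, 6.264 against 6.421 to 6.491.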

How the results depend on the processing

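Over the alternatives that keep all arrays, members lower with manganese numbered 39 to 47 and higher 5 to 7, and members lower with the alloy numbered 18 to 25. Among the single genes with full values, 0 results past the threshold changed sign. Leaving out 1 array gave 42 to 47 lower and 6 to 7 higher with manganese, 20 to 23 lower and 6 to 7 higher with the alloy, 1 to 2 higher and 0 to 1 lower with iron, 1 to 8 higher and 0 lower for alloy against manganese, and 43 to 48 lower and 6 to 7 higher for manganese against iron. Members higher with iron numbered 0 in 1 model of all 24 arrays 1 with median scaling, without normalization or with the mean of a gene's probes, and 3 with array weights, in the authors' normalized probe table or above background on all 12 arrays, and 1 was lower in each of the authors' 3 other tables. Members higher with the alloy numbered 2 without normalization, 4 with median scaling and 9 with array weights. Members higher in alloy against manganese numbered 12 in 1 model of 24 arrays, 14 with array weights, 0 with median scaling or no normalization, 5 in either of the authors' gene tables and 9 without alloy replicates 1, 3 and 4, and 1 was lower in the model of 24 arrays and without those replicates. The median change with manganese was -0.14 (authors' normalized probe table) and -0.22 (authors' normalized gene table) in complex II, 0.38 (that gene table) and 0.34 (mean of probes) for cytochrome c, and -0.043 (median scaling) and -0.040 (normalized probe table) in complex IV. Without normalization the alloy medians were -0.21 in complex I, -0.31 in complex II, -0.080 in complex III and -0.085 in complex IV. Complex III was 0.025 without alloy replicates 1, 3 and 4. The main alloy medians were -0.026 in complex III and 0.0075 in complex IV. The median of complex IV thus changed sign without normalization, and that of complex III without those replicates. The cause was not tested. Without normalization 28% of all genes were lower and 7.79% higher with the alloy, against 25.5% and 23.1%; with median scaling 28.1% and 11.2%. With manganese these were 36.1% and 22% without normalization. With the replicate number as a block, 46 members were lower and 6 higher with manganese, 21 and 7 with the alloy. Deviations of same-numbered arrays correlated from -0.16 to 0.19 for manganese and control, -0.0042 to 0.34 for iron and control, -0.10 to 0.21 for alloy and control, -0.20 to 0.25 for alloy and manganese and -0.068 to 0.17 for manganese and iron. Not every pair passed 0.1 in any comparison, so the numbers were not taken as pairs. Of 3297 values for single genes, 3194 stayed on their side of the threshold, and 168 changed sign with neither value past it. Dim probes limit what can be said of Ndufs1 and Sdha.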
